A study of Mus musculus with 18 samples.

Results

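Long noncoding RNAs are transcripts that are not translated into protein, and some of them carry small nucleolar RNAs (snoRNAs) in their introns. The set described here was chosen by gene symbol and holds 8 named RNAs: Malat1, Neat1, Gas5, Snhg1, Snhg12, Meg3, H19 and Kcnq1ot1. Of these, 7 were listed in all 3 gene count tables, out of 21018 genes listed in at least 1 table and 16184 in all 3. Kcnq1ot1 was listed in none of them and was not analysed here. The liver RNA came from male C57/B6J mice aged 12 weeks and taken 4 h after injection. The 3 mice given 20 µg/kg of IL-1β, an inflammatory cytokine, are named ILB.9579, ILB.9582 and ILB.9583, and the 3 mice given saline UNT.9574, UNT.9575 and UNT.9576. RNA of every mouse was prepared with 3 kits, which gave 18 libraries: Pico, a stranded kit that amplifies total RNA and cuts ribosomal cDNA, and the poly(A) kits V4 (unstranded, for low input) and TruSeq (stranded). The kits also differed in RNA amount, and TruSeq in sequencer and read length (125 bp against 150 bp), and these cannot be told apart from the kit.

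Malat1 and Neat1 are abundant nuclear RNAs. Malat1 gathers in nuclear speckles, and Neat1 is the scaffold of paraspeckles, nuclear bodies built from its long isoform and RNA-binding proteins such as SFPQ, NONO and PSPC1. The mature 3′ ends of Malat1 and of the long Neat1 isoform are not made by adding a poly(A) tail: RNase P cuts upstream of a tRNA-like fold, and a genome-encoded A-rich tract pairs with U-rich motifs to protect the end. Gas5, Snhg1 and Snhg12 are snoRNA host genes. Their spliced RNAs carry a poly(A) tail and are degraded during translation by nonsense-mediated decay, and the excised introns yield snoRNAs that guide methylation (box C/D) or pseudouridylation (box H/ACA) of ribosomal RNA. Such hosts often start with a run of pyrimidines, as do the mRNAs of ribosomal proteins. Meg3, H19 and Kcnq1ot1 are imprinted RNAs, and Meg3 and H19 are high in fetal liver and low in the adult liver.

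The regions around the mature 3′ ends are shown because they set Malat1 and Neat1 apart from RNAs with an added poly(A) tail. Both genes lie on chromosome 19 of mm9 on the minus strand, and each region spans 190 bases of the NCBIM37 (mm9) genome. Capitals mark the 3 strings of 13, 16 and 12 bases that occur in both regions.
Malat1, chr19:5795912-5796101: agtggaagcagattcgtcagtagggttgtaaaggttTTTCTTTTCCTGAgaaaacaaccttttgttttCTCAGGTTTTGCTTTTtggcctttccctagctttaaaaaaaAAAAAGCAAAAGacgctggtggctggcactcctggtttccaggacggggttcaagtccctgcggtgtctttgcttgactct
Neat1, chr19:5824638-5824827: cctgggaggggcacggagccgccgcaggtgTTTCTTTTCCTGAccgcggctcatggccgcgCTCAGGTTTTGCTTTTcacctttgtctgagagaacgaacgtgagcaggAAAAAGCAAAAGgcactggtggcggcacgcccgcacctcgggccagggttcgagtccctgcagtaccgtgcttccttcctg
The first and second capital strings are rich in T, and the third closes the A-rich tract. The tract holds 18 bases in Malat1, with a run of 12 A, and 11 bases in Neat1, where the longest A run of the annotated gene was 7. The tract ended 292 bases upstream of the annotated 3′ end of Malat1 and exactly at that of Neat1.

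The starts of the 3 snoRNA host genes are shown because genes of this kind often begin with a run of pyrimidines. They come from RefSeq promoters of build GRCm38.p6, plus strand. Each stretch gives 60 bases before and 40 from the annotated start, and capitals mark the longest run of C and T that touches the window from 10 bases before the start to 20 after it.
Gas5, chr1:161035106-161035205: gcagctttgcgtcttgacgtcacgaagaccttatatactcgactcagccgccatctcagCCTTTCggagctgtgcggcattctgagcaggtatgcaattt
Snhg1, chr19:8723427-8723526: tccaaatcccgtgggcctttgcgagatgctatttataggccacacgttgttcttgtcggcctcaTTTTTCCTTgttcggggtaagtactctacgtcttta
Snhg12, chr4:132308618-132308717: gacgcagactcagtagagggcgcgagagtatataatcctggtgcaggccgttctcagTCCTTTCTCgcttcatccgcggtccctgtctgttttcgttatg
The run held 9 bases in Snhg1 and in Snhg12, and a run at least as long was present in 11.6% of the 32851 promoters in the table. In Snhg12 it began 3 bases before the annotated start. In Snhg1 it began at base 5, counting the start as base 1. The run of Gas5 held 6 bases, which 36.3% of promoters reached, and began 1 base before the start. Of the 2 Gas5 entries in the table, the one with the longer run is shown. The other held a run of 3 bases, which 90.8% of promoters reached.

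In the annotation of mm9, Malat1 (chr19:5795690-5802671, 6982 exonic bases) and Neat1 (chr19:5824708-5845478, 20771 exonic bases) each form a single exonic block. Gas5 lies at chr1:162964553-162968670, Snhg1 at chr19:8797986-8800932 and Snhg12 at chr4:131864593-131866939, all on the plus strand. Snhg1 also forms 1 exonic block (2947 exonic bases), so its joined model leaves out no intron. Gas5 has 3 blocks and Snhg12 has 2. These 3 hosts hold 9, 8 and 4 annotated snoRNAs. All 9 of Gas5, all 8 of Snhg1 and 3 of the 4 of Snhg12 lie wholly within annotated exons of the host, and none of these was listed in a table. The 1 snoRNA wholly outside host exons, Snora16a in Snhg12, was listed for Pico and TruSeq. How far reads of a snoRNA or an intron entered the counts of its host was not tested. The gene counts also do not separate the short and the long isoform of Neat1. Meg3 is at chr12:110779211-110809936 on the plus strand, and its exons hold the microRNA genes Mir770 and Mir1906-1. H19 is at chr7:149761434-149764048 on the minus strand and holds Mir675. None of these microRNA genes was listed. On the opposite strand, Gas5 overlaps Zbtb37 by 428 bases, Malat1 overlaps Gm20417 and Meg3 overlaps Gm17639, which matters for V4, where strands were counted together. Zbtb37 had 3 to 16 counts per V4 library.

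Pico libraries held 4024632 to 4134070 gene counts, V4 libraries 12013453 to 12352473 and TruSeq libraries 12348864 to 12858237, after resampling to an equal depth within each kit. Pico therefore resolves small shares less finely than the other kits. Shares are given as CPM, the counts of a gene divided by the library total and scaled to 1000000. All intervals and limits given here cover counting error only. Hepatocyte markers took 65353 to 122593 CPM over the 18 libraries, and all 10 genes of that list were detected in each kit. Their sum was lower after IL-1β in TruSeq without overlap (92883 to 97628 against 103123 to 122593 CPM). In Pico and V4 the hepatocyte sums of the treatments overlapped. The neutrophil list summed to 43.2 to 94.7 CPM after IL-1β and 1.0 to 6.4 after saline. Of its 12 genes, 4 were at 0 in every Pico library, 2 in every V4 library and 1 in every TruSeq library. Lists for Kupffer cells (11 genes), sinusoidal endothelial cells (10 genes) and stellate cells (10 genes) were lower after IL-1β in every kit, with no overlap of their sums between treatments. In TruSeq these sums were 104 to 154 against 205 to 313, 155 to 195 against 285 to 322, and 179 to 236 against 328 to 398 CPM. By the same threshold, genes of these lists in TruSeq were 1 higher and 6 lower, 1 and 8, and 0 and 5. Their part in the responses below was not tested, and fewer cells of a type cannot be told apart from less RNA per cell.

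Together the 7 listed RNAs took 0.719% to 1.88% of a Pico library, 0.0688% to 0.160% of a V4 library and 0.140% to 0.222% of a TruSeq library. Malat1 and Neat1 took most of this in every library. By mean count Malat1 was the gene of rank 15 for Pico, 107 for TruSeq and 203 for V4, and Neat1 that of rank 20, 201 and 332. Gas5 was the next most abundant of the set by mean count in each kit.

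**Figure D1:**
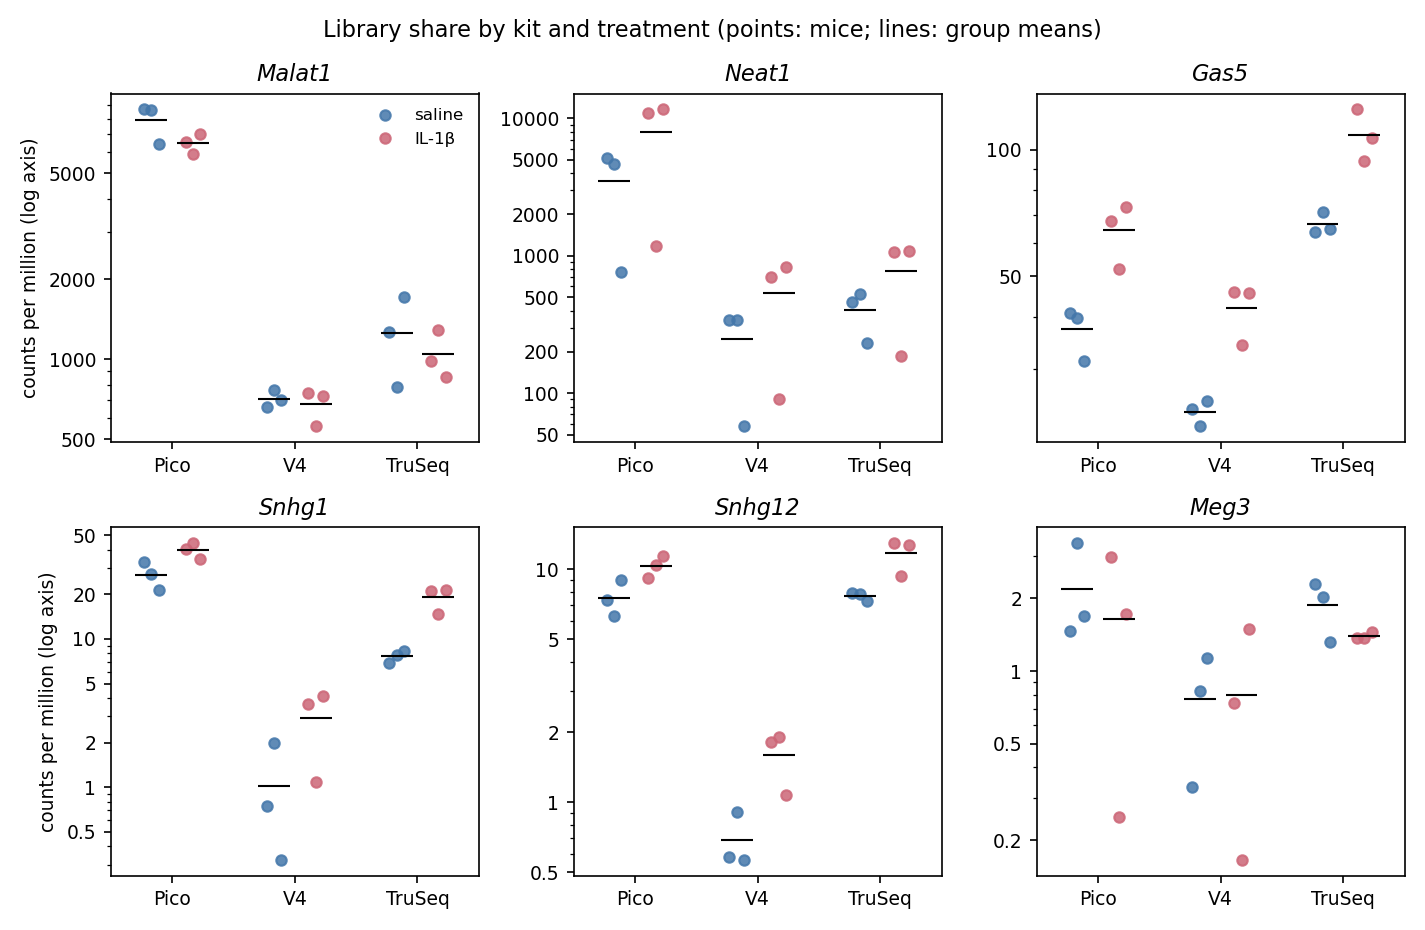
CPM (log axis, a separate range in each panel) of 6 RNAs in each of the 18 libraries, by kit, with saline mice in blue, IL-1β mice in red and group means as lines. Malat1 was at 5899 to 8698 in Pico and at most 1714 in both other kits, and Neat1 had 1 low mouse in each treatment group in every kit.

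Malat1 had a far larger share in total RNA than in either poly(A) kit. In Pico it was at 8698, 8658 and 6457 CPM in saline mice and at 6548, 5899 and 7019 in IL-1β mice (in the order of mouse number). In TruSeq it was at 1266, 784 and 1714 after saline and at 984, 1291 and 854 after IL-1β. In V4 it was at 661, 763 and 706 after saline and at 749, 560 and 726 after IL-1β. Every Pico library was above every library of the other kits. Within mice the log2 ratio of Pico over TruSeq was 2.69 ± 0.56 (SD, n = 6 mice), or 6.44-fold, and that of Pico over V4 3.37 ± 0.22, or 10.3-fold. A ratio between kits comes from tables that were normalized separately and carries no test. The median gene had a log2 ratio of 0.06 for Pico over TruSeq and 0.48 for Pico over V4. A lower ratio than that of Malat1 was found in 99.6% of 9569 genes for Pico over TruSeq. For Pico over V4 it was found in 94.1% of 8976 genes. Over 14 alternative settings the Malat1 ratio of Pico over V4 ran from 2.84, with TMM factors over both kits, to 3.50.

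Neat1 had the same direction and more spread between mice. Its log2 ratio of Pico over TruSeq was 2.97 ± 0.69 (7.82-fold, n = 6 mice), with single mice from 3.27-fold to 11.2-fold. Its ratio of Pico over V4 was 3.82 ± 0.10 (14.1-fold), with single mice from 13.1-fold to 15.7-fold. The ratio to V4 was thus nearly constant although the Neat1 share itself ranged 15.4-fold between the 6 Pico libraries. The mean log2 ratio to V4 was 3.30 with TMM factors over both kits and 3.95 with totals without mitochondrial genes. Of the genes compared, 99.8% had a lower ratio than Neat1 for Pico over TruSeq and 96.9% for Pico over V4. All 6 mice were higher in Pico in both comparisons, but the libraries of the kits overlapped because saline mouse UNT.9576, at 758 CPM in Pico, was below the highest libraries of TruSeq (1077) and V4 (826).

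The snoRNA hosts did not behave alike. Gas5 was lower in Pico than in TruSeq in 6 of 6 mice (log2 ratio -0.79 ± 0.18, 0.576-fold), and higher in Pico than in V4 in 6 of 6 (0.64 ± 0.19, 1.55-fold), close to the median gene in the latter comparison. Over 14 alternative settings the Gas5 ratio of Pico over V4 ran from 0.11, with TMM factors over both kits, to 0.77. Snhg1 was higher in Pico than in TruSeq in 6 of 6 mice (1.44 ± 0.57, 2.72-fold) and higher than in V4 by a log2 ratio of 4.42 ± 1.14, or 21.5-fold. Snhg12 did not differ between Pico and TruSeq beyond its spread (-0.08 ± 0.29, higher in Pico in 2 of 6 mice) and was 8.12-fold higher in Pico than in V4 (3.02 ± 0.62). The V4 share of Snhg1 rested on 4 to 50 counts per library, and that of Snhg12 on 7 to 23.

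Between the poly(A) kits, all hosts were lower in V4. The log2 ratio of V4 over TruSeq was -1.43 ± 0.16 for Gas5, -2.98 ± 0.92 for Snhg1 and -3.10 ± 0.53 for Snhg12, against a median gene of -0.34. The corresponding ratios were -0.68 ± 0.53 for Malat1 and -0.85 ± 0.61 for Neat1, so that these RNAs lay within 1 SD of the median gene. With TMM factors over both kits, 2 of the 4 RNAs without overlap, Malat1 and Gas5, overlapped between V4 and TruSeq.

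**Figure D2:**
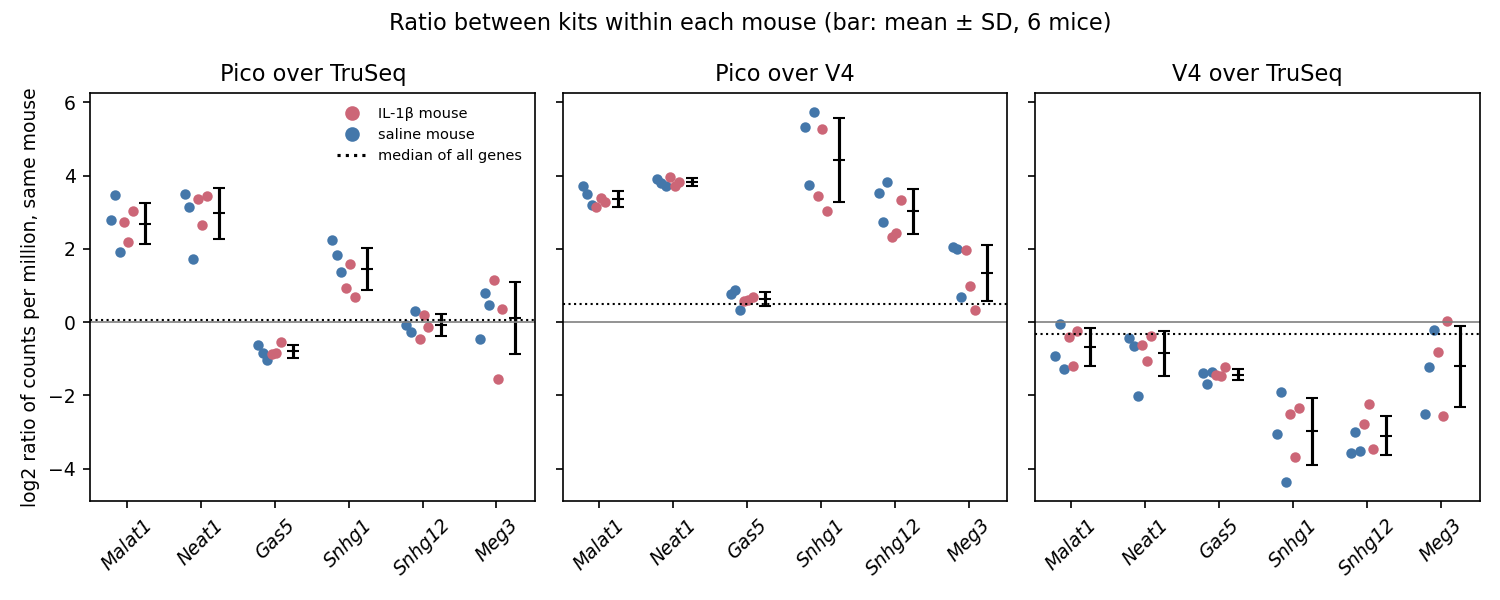
Log2 ratio of CPM between kits within each mouse (1 count added), for Pico over TruSeq, Pico over V4 and V4 over TruSeq. Points are mice, bars the mean ± SD over 6 mice, and the dotted line the median of all genes averaging 20 or more counts in each kit of the pair: in the first panel the means of Malat1 and Neat1 are 2.69 and 2.97, and those of Gas5 and Snhg12 are -0.79 and -0.08.

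Of the 7 RNAs, 1 was higher in Pico than in TruSeq with no overlap of the 6 and 6 libraries (Malat1), as were 9.83% of all 17207 genes listed in both tables. None was lower without overlap, as were 7.18% of genes. Against V4, 3 of 7 were higher in Pico without overlap (Malat1, Snhg1 and Snhg12), as were 24.7% of genes, and none was lower, as were 12.8%. Between V4 and TruSeq none was higher in V4 without overlap (10.2% of genes) and 4 were lower (Malat1, Gas5, Snhg1 and Snhg12), as were 22.6% of genes. Without saline mouse UNT.9576, Malat1, Neat1 and Snhg1 were higher in Pico than in TruSeq without overlap, and without IL-1β mouse ILB.9583 Malat1 and Snhg1 were. The share of all genes was not counted without these mice.

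Meg3 and H19 were the least abundant of the 7 RNAs. Meg3 summed to 47 counts over the 6 Pico libraries, 57 in V4 and 124 in TruSeq, which is 1.92 CPM in Pico (95% exact Poisson interval 1.41 to 2.56), 0.784 in V4 (0.593 to 1.02) and 1.64 in TruSeq (1.37 to 1.96). H19 had 4 counts in Pico, all in saline mouse UNT.9576, 1 in V4 and 8 in TruSeq. At these counts no ratio between kits is given for H19, which still counts among the 7 RNAs of the overlap counts. A total of 3 counts over 6 libraries, the limit that a count of 0 allows, stands for 0.123 CPM in Pico and 0.0397 in TruSeq.

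Per kilobase of exon, the order within Pico was Malat1 (1033 ± 170 CPM, divided by exon length in kilobases), Neat1 (276 ± 226), Gas5 (13.5 ± 4.4), Snhg1 (11.4 ± 2.9) and Snhg12 (5.49 ± 1.16), each as mean ± SD over 6 mice. Gas5 and Snhg1 did not differ beyond their spread there. In TruSeq the order was Malat1 (165 ± 50), Neat1 (28.5 ± 19), Gas5 (23.3 ± 6.7), Snhg12 (5.95 ± 1.57) and Snhg1 (4.54 ± 2.28). Neat1 and Gas5 did not differ beyond their spread, and Neat1 was the higher in 4 of 6 mice. The ranges of Snhg12 and Snhg1 over mice overlapped, but Snhg12 was above Snhg1 in each of the 6 mice, a count added after the data were seen. In V4 Malat1 was at 99.4 ± 10.7, Neat1 at 18.9 ± 15.1, Gas5 at 8.73 ± 2.89, Snhg12 at 0.702 ± 0.362 and Snhg1 at 0.673 ± 0.535. In Pico, Neat1 was above Gas5 in 6 of 6 mice. Exon lengths came from all annotated transcripts joined, so a gene with retained introns has a long model.

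The snoRNA inside Snhg12 is shown because it is the only small RNA of these hosts that the tables list. It lies at chr4:131865380-131865515 on the plus strand of mm9 and belongs to the box H/ACA class. Capitals mark the ACA box, 3 bases before the end.
Snora16a: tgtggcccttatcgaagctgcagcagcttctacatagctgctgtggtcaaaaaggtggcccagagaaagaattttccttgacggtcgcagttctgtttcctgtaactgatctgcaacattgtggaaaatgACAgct
In Pico, Snora16a had 38, 53 and 56 counts after IL-1β and 53, 54 and 52 after saline. In TruSeq it had 4, 0 and 1 after IL-1β and 1, 1 and 0 after saline, and it was not listed for V4. Summed over mice this was 306 counts in Pico and 7 in TruSeq, a 135-fold ratio of CPM (95% exact interval 64.7 to 339). Of the 7 TruSeq counts, 4 came from mouse ILB.9579. Without that mouse, a step added after the data were seen, the ratio was 276 (93.5 to 1348), and without any other mouse it was 112 to 130.1. Its host Snhg12, over the same libraries, was level between the kits. In Pico the snoRNA had 1.03 to 2.08 counts for each count of Snhg12. All snoRNA genes together took 688 to 818 CPM in Pico, 3.56 to 7.90 in TruSeq and 0.744 to 3.86 in V4. A list of 19 RNAs known to lack a poly(A) tail, 7 of them annotated under these symbols, lay in the same direction, and all 7 were higher in Pico than in TruSeq without overlap, against 9.83% of all genes.

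IL-1β raised Gas5 in every kit. Gas5 was at 67.7, 51.9 and 73.0 CPM in the Pico libraries of IL-1β mice and at 40.9, 39.8 and 31.4 in those of saline mice. In V4 the values were 45.9, 34.2 and 45.5 against 24.1, 21.9 and 25.2, and in TruSeq 125, 94.2 and 106 against 63.7, 71.3 and 64.7. All IL-1β libraries were above all saline libraries in each kit. The log2 fold change was 0.77 (SE 0.19, adjusted p = 0.00787) for Pico, 0.81 (SE 0.21, adjusted p = 0.0347) for V4 and 0.70 (SE 0.12, adjusted p = 0.00167) in TruSeq, from limma-voom with Benjamini-Hochberg adjustment over all genes. With 3 separate animals per group, these p-values measure the spread between mice. The calls in Pico and V4 depended on single mice. The adjusted p reached 0.0602 in Pico without mouse ILB.9583, 0.0593 without UNT.9576 and 0.0585 without ILB.9579, and 0.124 in V4 without UNT.9575, with 0.0958, 0.110 and 0.114 without UNT.9574, ILB.9579 and ILB.9583. Log2 fold changes in the fits that lost the call were 0.65 to 0.73 in Pico and 0.74 to 0.82 in V4.

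Snhg1 rose in TruSeq, from 6.87, 7.74 and 8.32 CPM after saline to 21.1, 14.8 and 21.4 after IL-1β (log2 fold change 1.30, SE 0.18, adjusted p = 0.000538). It had the largest fitted rise of the 7 RNAs in that kit, and the groups did not overlap. In Pico it was at 32.8, 27.4 and 21.3 after saline and at 40.3, 44.5 and 34.4 after IL-1β. These groups did not overlap either, but the fold change of 0.56 (SE 0.21) did not pass the test (adjusted p = 0.0783). It passed with TMM factors (adjusted p = 0.0259), with edgeR (0.00701), with DESeq2 (0.0238) and with the filter of 10 counts (0.0443). In V4 Snhg1 had 44, 13 and 50 counts after IL-1β and 9, 24 and 4 after saline. The groups overlapped, and the fold change of 1.63 (SE 0.83) had an adjusted p of 0.259.

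Snhg12 rose in TruSeq, from 7.90, 7.81 and 7.31 to 12.96, 9.31 and 12.7 CPM (log2 fold change 0.59, SE 0.17, adjusted p = 0.0217). The call was lost without any 1 of the mice UNT.9574, UNT.9575, UNT.9576, ILB.9579 and ILB.9583, with adjusted p of 0.0637 to 0.0785, and at the depth of the smallest library (0.214). Log2 fold changes in the fits that lost the call were 0.49 to 0.61. In Pico its groups did not overlap, with 6.31 to 8.95 after saline and 9.14 to 11.4 after IL-1β, and the fold change was 0.46 (SE 0.33, adjusted p = 0.408). In V4 it had 22, 23 and 13 counts against 7, 11 and 7, with a fold change of 1.16 (SE 0.68, adjusted p = 0.337). The snoRNA Snora16a had a log2 fold change of -0.11 (SE 0.28, adjusted p = 0.834) in Pico.

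**Figure D3:**
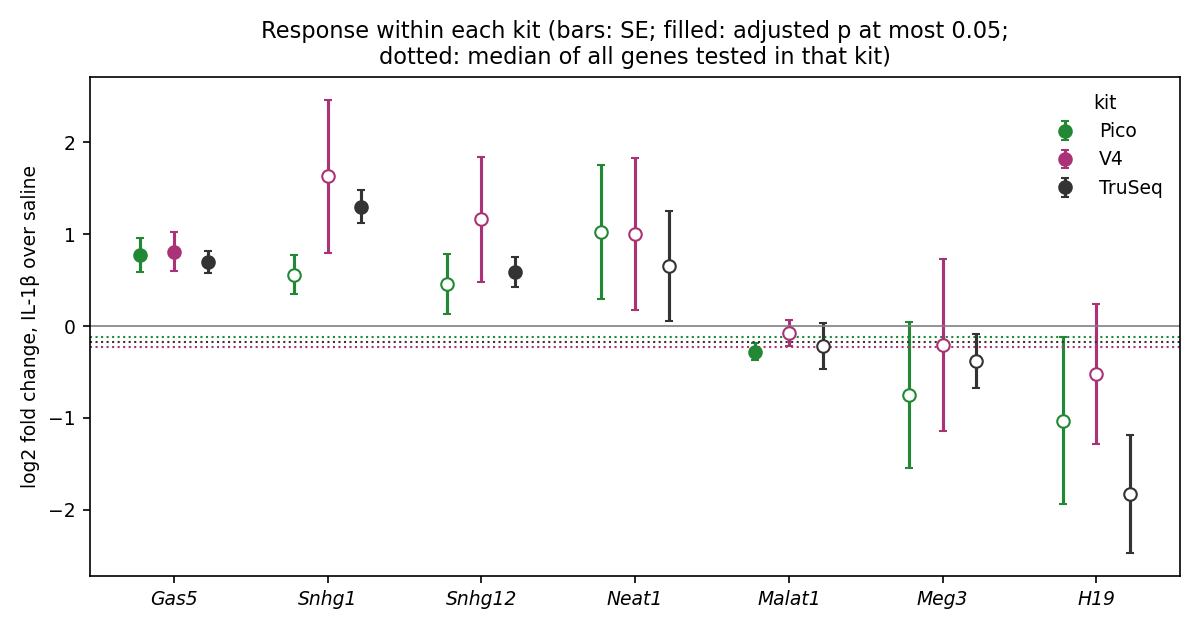
Log2 fold change of IL-1β over saline from limma-voom in each kit, with standard errors. Filled points passed an adjusted p of 0.05, open points did not, and dotted lines give the median of all genes tested in the kit: Gas5 is filled in all 3 kits, Snhg1 and Snhg12 in TruSeq only, and Malat1 in Pico only.

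Neat1 separated mice rather than treatments. In Pico it was at 5157, 4687 and 758 CPM after saline and at 11009, 1186 and 11656 after IL-1β. In V4 the values were 342, 339 and 57.4 against 702, 90.7 and 826, and in TruSeq 459, 528 and 232 against 1074, 188 and 1077. Saline mouse UNT.9576 and IL-1β mouse ILB.9582 were low in all 3 kits, and the other IL-1β mice were above the other saline mice in all 3. The log2 fold change was 1.02 (SE 0.73, adjusted p = 0.400) for Pico, 0.998 (SE 0.83, adjusted p = 0.523) for V4 and 0.65 (SE 0.60, adjusted p = 0.469) in TruSeq. Without mouse ILB.9582 it was 1.49 in TruSeq with an adjusted p of 0.0170, and without mouse UNT.9576 it was 0.12 in Pico with an adjusted p of 0.931. With TMM factors in the quasi-likelihood test of edgeR the adjusted p in Pico was 3.82e-36, against 0.460 in DESeq2. The cause of this gap was not tested.

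The mice low in Neat1 were not low in Malat1 in every kit. In TruSeq mouse UNT.9576 had the highest Malat1 share of the 6 and mouse ILB.9582 the second highest. In Pico these mice had the 2 lowest Malat1 values, 5899 CPM in ILB.9582 and 6457 in UNT.9576. In V4 ILB.9582 was the lowest at 560 CPM and UNT.9576 the third lowest at 706. Over 18 libraries and the 8960 genes averaging 20 or more counts by kit in all 3, the genes with the pattern closest to Neat1 were Ube2q2 (Pearson r = 0.883, log2 of CPM plus 1), which encodes a ubiquitin-conjugating enzyme, and Hsp90aa1 (0.856), a stress-inducible chaperone. The points share kit and mouse. By Spearman's rho Ube2q2 was at place 10 and Hsp90aa1 at place 31 of 8959. With the mean of each kit removed, a measure added after the data were seen, Ube2q2 was again closest (0.860) and Atpbd4 second (0.821). Ube2q2 had 92 and 97 counts in the Pico libraries of mice UNT.9576 and ILB.9582 and 105 to 131 in the others.

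**Figure D4:**
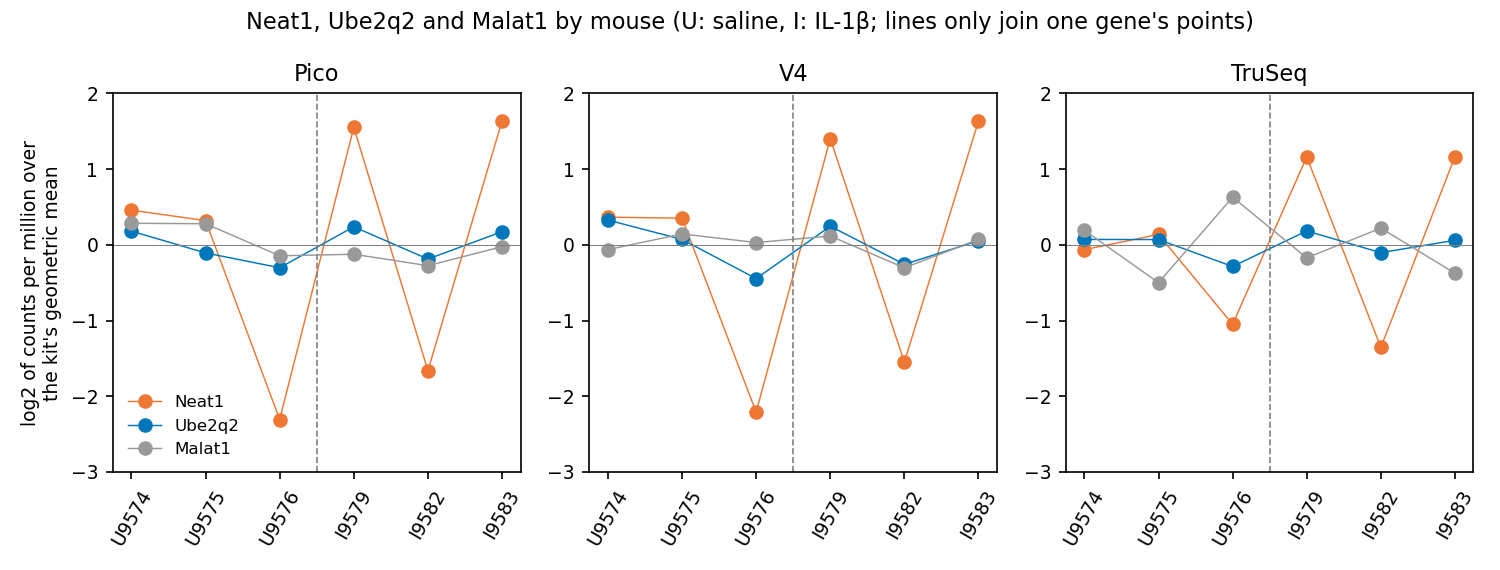
Neat1, Ube2q2 and Malat1 by mouse in each kit, as log2 of CPM over the geometric mean of that kit's 6 libraries. U marks saline and I IL-1β mice, and lines only join the points of one gene: mice UNT.9576 and ILB.9582 are below 0 for Neat1 and Ube2q2 in all 3 kits, while Malat1 is above 0 in both in TruSeq.

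Malat1 was called lower after IL-1β in Pico with library totals, and this call depended on the scaling. The log2 fold change was -0.28 (SE 0.09, adjusted p = 0.0418), and the groups overlapped. With TMM factors it was not called (adjusted p = 0.263), nor in edgeR (0.313) or DESeq2 (0.415), at the depth of the smallest library (0.0509), or without any 1 of the mice other than UNT.9576 (0.110 to 0.352). In TruSeq the fold change was -0.22 (SE 0.25, adjusted p = 0.560), which changed sign without mouse UNT.9576. In V4 it was -0.08 (SE 0.14, adjusted p = 0.767), which changed sign with TMM factors, in edgeR and DESeq2, and without mouse ILB.9582. The median of all genes tested was itself at -0.12 for Pico, -0.22 for V4 and -0.17 for TruSeq with library totals, and at 0.02, -0.06 and -0.01 with TMM factors. Relative to the median gene the Malat1 change in Pico was thus smaller, and the rise of Gas5 in each kit larger, than the fold changes given.

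Meg3 had log2 fold changes of -0.75 for Pico, -0.21 for V4 and -0.38 for TruSeq, none past the test (adjusted p = 0.595, 0.909 and 0.370). The value in Pico changed sign without mouse ILB.9582, and that in V4 changed sign in edgeR and DESeq2, at the depth of the smallest library, and without mouse UNT.9576 or ILB.9582. H19 had 1 count in the IL-1β libraries and 7 in the saline libraries of TruSeq, with a fitted log2 fold change of -1.83 (adjusted p = 0.0513) that depends on how counts of 0 are treated. It passed the test without mouse UNT.9574 (0.0421) or ILB.9582 (0.0435).

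In all, 1 of the 7 RNAs was called higher after IL-1β in Pico (6.78% of all 18108 genes tested were) and 1 lower (10.8% of genes). In V4 1 was higher (3.6% of 18051 genes) and none lower (7.41%). In TruSeq 3 were higher (12.3% of 19424 genes) and none lower (21.8%). Without mouse ILB.9582, 5 of 7 were called in TruSeq, with Neat1 and H19 added. In that fit 1875 of 19184 genes were called higher and 3239 lower. With TMM factors in limma-voom the split of all genes was 1658 higher and 1478 lower for Pico, 864 and 874 for V4, and 3241 and 3127 for TruSeq, in place of 1228 and 1951, 649 and 1337, and 2382 and 4232 with library totals.

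Whether the response itself differed between kits was tested by the interaction of kit and treatment on the 12 libraries of 2 kits. None of the 7 RNAs was called for Pico against TruSeq, where 0.00492% of 20325 genes were, or for V4 against TruSeq, where 0.0885% of 20328 genes were. Snhg1 had the smallest p. Its response in Pico was lower than in TruSeq by a log2 difference of -0.74 (SE 0.29, unadjusted p = 0.0227, adjusted p = 0.785 in limma-voom). For Gas5 the difference was 0.08 (SE 0.23) for Pico and 0.11 (SE 0.22) for V4, and for Neat1 it was 0.37 (SE 1.38) and 0.35 (SE 1.28). The libraries of a mouse were not paired in this fit, so the standard errors of Neat1 include its spread between mice. In this fit they leave a wide range of differences undetected. Unadjusted p-values were under 0.05 for 1 of the 7 RNAs in the first comparison and for none in the second, and for 1243 and 1364 of all genes. No RNA of the set was called in these comparisons by edgeR or DESeq2 either.

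Some snoRNA host genes rose and fewer fell. Of 25 annotated hosts on the list, which holds Gas5, Snhg1 and Snhg12, TruSeq tested 23 and called 9 higher and 3 lower, where 12.3% of all genes were called higher and 21.8% lower. The 9 include Gas5, Snhg1 and Snhg12. The median log2 fold change of the hosts was 0.27 (all genes -0.17). Pico called 3 higher and 1 lower of 24 (median 0.34), against 6.78% and 10.8% of all genes. V4 called 2 higher and none lower of 24 (median 0.41), against 3.6% and 7.41%. With TMM factors the hosts called higher and lower were 11 and 2 for TruSeq, 6 and 1 for Pico, and 2 and 0 for V4. Of all 19424 genes in TruSeq these factors gave 3241 higher and 3127 lower. The numbers were 1658 and 1478 of 18108 genes in Pico, and 864 and 874 of 18051 in V4. The hosts highest in TruSeq counts were Hspa8, Rps3 and Eef1b2. Hspa8, which encodes a constitutive heat shock protein, rose by 0.70 in Pico (adjusted p = 0.00251) and 0.86 in TruSeq (adjusted p = 0.0134) and was not called in V4 (adjusted p = 0.293). Its call was lost in Pico without mouse UNT.9576, ILB.9579 or ILB.9582 (adjusted p = 0.0511 to 0.0834), and in TruSeq without UNT.9574, UNT.9576, ILB.9579 or ILB.9582 (0.0533 to 0.0772). Rps3 and Eef1b2, a ribosomal protein and an elongation factor gene, were called in no kit, with adjusted p of 0.891 to 0.967 and 0.525 to 0.943. Gas5 was the only host called in the same direction in all 3 kits.

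Snhg3, the host of both Snora73 copies in this annotation, is named after its values were seen. It rose in TruSeq by 2.17 (adjusted p = 2.46e-05) and in Pico by 2.76 (adjusted p = 0.0140), and in V4 the value was 1.87 (adjusted p = 0.207). On the opposite strand Snhg3 overlaps Gm17300 by 1611 bases. Gm17300 had 9 to 122 counts per library in V4, where strands were counted together, 0 to 5 in Pico and 0 to 2 in TruSeq. How far this overlap affects the V4 value was not tested. The Pico call was lost without mouse UNT.9574, UNT.9575, ILB.9582 or ILB.9583 (adjusted p = 0.0654 to 0.102). In TruSeq Snora73b went from 8.67 ± 1.53 to 28.7 ± 6.5 counts (SD, n = 3; log2 fold change 1.70, adjusted p = 0.00301), and Snora73a from 1.67 ± 1.53 to 12.3 ± 6.8 counts (2.89, adjusted p = 0.0114). In Pico, where these snoRNAs had more CPM, Snora73b was at 57.3 ± 17.9 and 54.7 ± 10.1 counts (-0.02, adjusted p = 0.985) and Snora73a at 26.7 ± 2.1 and 20.0 ± 4.4 (adjusted p = 0.569). At the depth of the smallest library the TruSeq calls were lost (adjusted p = 0.0565 for Snora73b and 0.0508 for Snora73a), and that of Snora73a was lost without mouse UNT.9574 (0.0512) or UNT.9576 (0.0583). In the annotation 77.6% of Snora73a and none of Snora73b lies in exons of Snhg3, and whether their TruSeq reads come from the host was not tested. The third most abundant RNA of the list without a poly(A) tail, Snord118, was called in no kit (adjusted p = 0.339 to 0.837).

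Genes for proteins that build snoRNA particles were called in 1 direction. Of 14 genes, TruSeq called 10 higher and none lower, Pico 3 and none, and V4 2 and none, and the list median was 0.68, 0.71 and 0.55. Of all genes, 12.3% were called higher in TruSeq, 6.78% in Pico and 3.6% in V4. With TMM factors the counts were 10, 7 and 5 higher and none lower. With these factors 3241 of all 19424 genes were called higher in TruSeq, 1658 of 18108 in Pico and 864 of 18051 in V4. Nop58, a core protein of box C/D particles, went from 289 ± 53 to 1419 ± 214 counts in TruSeq (log2 fold change 2.34, adjusted p = 9.53e-06) and rose by 2.37 in Pico and 2.28 in V4 (adjusted p = 5.95e-07 and 0.000209). Gar1, a core protein of box H/ACA particles, rose by 1.41 in TruSeq, 1.62 in Pico and 1.79 in V4 (adjusted p = 0.000752, 0.0290 and 0.0282). The Gar1 call was lost in Pico without any 1 of the mice UNT.9574, UNT.9575, UNT.9576, ILB.9579 and ILB.9582 (adjusted p = 0.0618 to 0.0887), and in V4 without UNT.9574, UNT.9575, ILB.9579 or ILB.9582 (0.0681 to 0.128). Nolc1, a nucleolar chaperone of snoRNA particles, rose by 1.21 in Pico and 1.08 in TruSeq (adjusted p = 0.000115 and 0.000349) and had an adjusted p of 0.0665 in V4. Nop10 was called in no kit (adjusted p = 0.0980 to 0.947).

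**Figure D5:**
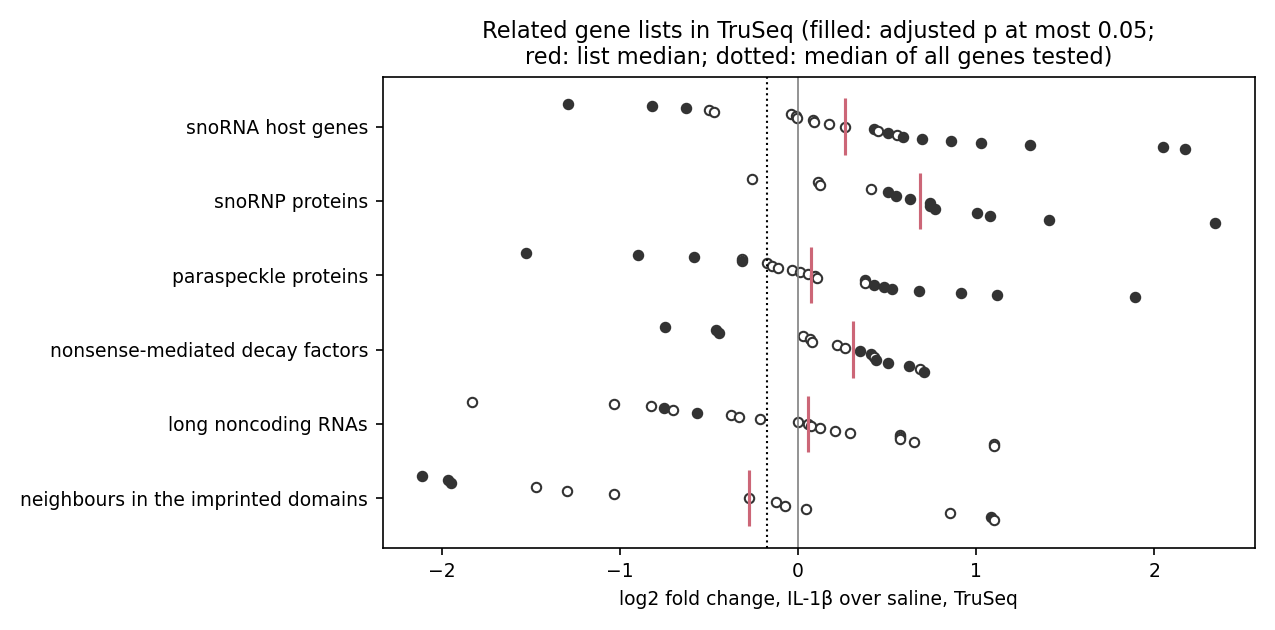
Log2 fold change of IL-1β over saline in TruSeq for every tested gene of 6 related lists, with filled points at an adjusted p of at most 0.05, the list median in red and the median of all genes dotted. The snoRNP proteins have 10 of 14 genes filled to the right of 0 and none to the left, and the other lists have filled points on both sides except the long noncoding RNAs, whose 2 filled points are both below 0.

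Of 22 genes for paraspeckle proteins, TruSeq called 8 higher and 4 lower (median 0.08), which is set against 12.3% and 21.8% of all genes. Pico called 4 and 1 (median 0.05, all genes 6.78% and 10.8%) and V4 called 3 and none (median 0.11, all genes 3.6% and 7.41%). With TMM factors the counts were 9 and 3 for TruSeq, 5 and 1 for Pico and 4 and 0 for V4. Those for all genes were then 3241 and 3127 of 19424, 1658 and 1478 of 18108, and 864 and 874 of 18051. The 3 called higher in all kits were Pspc1, Sfpq and Rbm14, all proteins of the paraspeckle core. Pspc1 rose by 1.48, 1.83 and 1.89 in Pico, V4 and TruSeq (adjusted p = 0.000485, 0.0207 and 3.62e-05). Sfpq rose by 0.98, 1.04 and 1.12 (adjusted p = 3.28e-05, 0.0381 and 9.38e-05), and Rbm14 by 0.65, 0.79 and 0.92 (adjusted p = 0.0331, 0.0176 and 0.000275). In V4 the call of Pspc1 was lost without mouse UNT.9574, UNT.9575, ILB.9582 or ILB.9583 (adjusted p up to 0.0857), that of Sfpq without any 1 mouse but ILB.9582 (up to 0.128) and that of Rbm14 without UNT.9574, UNT.9575, ILB.9582 or ILB.9583 (up to 0.0693). In Pico the call of Rbm14 was lost without any 1 mouse but UNT.9575 (up to 0.177). Hnrnpk and Tardbp, among the most abundant genes of the list in TruSeq, were called in no kit (adjusted p = 0.454 to 0.893 and 0.175 to 0.515).

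Of 16 factors of nonsense-mediated decay, TruSeq called 6 higher and 3 lower (median 0.31, all genes 12.3% and 21.8%), Pico 2 and 1 (median 0.29, all genes 6.78% and 10.8%) and V4 none (median 0.27, all genes 3.6% and 7.41%). With TMM factors the calls were 9 and 1 for TruSeq, 5 and 0 for Pico, and 1 and 0 for V4. Those for all genes were then 3241 and 3127 of 19424, 1658 and 1478 of 18108, and 864 and 874 of 18051. Smg1, the kinase of the pathway, rose by 0.79 in Pico (adjusted p = 0.000146) and was not called in TruSeq or V4 (adjusted p = 0.0693 and 0.697), though it passed in TruSeq with TMM factors (0.0279). Smg5, which helps to remove phosphate from UPF1, rose by 0.51 in TruSeq (adjusted p = 0.00866) and was not called elsewhere (adjusted p = 0.0940 in Pico and 0.824 in V4), though it passed in Pico with TMM factors (0.0283).

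Of 34 long noncoding RNAs on a list, 27 were annotated under these symbols, among them Malat1, Neat1, Meg3 and H19. Kcnq1ot1 was on the list but not among the 27. None of those tested was called higher in any kit. Lower calls numbered 2 of the 21 tested in Pico, 1 of 18 in V4 and 2 of 21 in TruSeq. The shares of all genes called lower were 10.8%, 7.41% and 21.8%. With TMM factors 1 was called lower in each kit. Of all genes, 1478 of 18108 then were in Pico, 874 of 18051 in V4 and 3127 of 19424 in TruSeq. The most abundant after Malat1 and Neat1 was 1700020I14Rik (Oip5os1, also called Cyrano), which fell by 0.91 in Pico (adjusted p = 0.000543) and by 0.75 in TruSeq (adjusted p = 0.00533) and had an adjusted p of 0.148 in V4. The list medians were -0.22, -0.29 and 0.06. Of 16 neighbours of the imprinted RNAs, 12 were tested in Pico, 12 in V4 and 13 in TruSeq. Of these, 0, 0 and 1 were called higher and 2, 1 and 3 lower, against 10.8%, 7.41% and 21.8% of all genes called lower. Osbpl5, at the edge of the Kcnq1ot1 domain, fell in all 3 kits, by 3.30, 4.66 and 1.97, from 25.7, 47.7 and 58.0 to 3.67, 2 and 14.0 mean counts (adjusted p = 0.00588, 0.0128 and 0.000600). The call was lost in Pico without mouse ILB.9582 (adjusted p = 0.0505), and in V4 without UNT.9575, ILB.9582 or ILB.9583 (0.0569 to 0.102) and with the filter of 10 counts in 3 libraries (0.0687). The 3 most abundant neighbours, Cd81, Slc22a18 and Nap1l4, were called in no kit, with adjusted p from 0.0572 to 0.894.

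The genes closest to the other RNAs were taken over the same 18 libraries, with kit means not removed. For Malat1 they were Rock1 and Akap9 (Pearson r = 0.986 for both), for Gas5 Cebpg and Ddx39b (0.944 and 0.939), and for Snhg1 Cdk12 and Sfpq (0.984 and 0.979). Snhg12, Meg3 and H19 had a mean under 20 counts in at least 1 kit and were not compared. These points share library, kit and mouse, and each of the genes named would place lower with Spearman's rho, at place 13 to 81 of 8959.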

How the data were processed

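Liver RNA of 6 mice was measured in 18 libraries. The authors aligned reads to mm9 with GSNAP, removed ribosomal reads, resampled to an equal depth within each kit and counted reads per gene with PORT. The deposited values are whole counts per gene after this resampling, on the sense strand in the stranded kits (Pico, TruSeq) and over both strands in V4. The 3 tables were normalized separately, and each lists a different set of genes. The labels give 1 library per mouse and kit. Coordinates are those of the GENCODE annotation of mm9, and older symbols were matched through RefSeq synonyms.

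Each kit was fitted with limma-voom (limma 3.58.1, R 4.3.3) on library totals over genes above 0, with a two-sided test at a Benjamini-Hochberg adjusted p of 0.05. Differences in response were fitted as kit by treatment on 12 libraries, with genes not listed in a table set to 0. Shares between kits were compared as log2 ratios of CPM with 1 count added, within mice and without a test, since the tables, the RNA input and, for TruSeq, the sequencer differ. The alternatives were edgeR 4.0.16 and DESeq2 1.42.0, TMM factors, a filter of 10 counts in 3 libraries, no filter, thinning to 4024632 counts, other added counts, thresholds of 0.01 and 0.1, totals without mitochondrial genes, summed counts, Spearman's rho and leaving out each mouse. The fits were tested on simulated data. Python 3.11.15 was used for summaries. RNA of each mouse was split between kits, so mouse numbers pair the libraries. Deviations from group means correlated at 0.0789 to 0.435 for the same mouse and -0.346 to -0.0314 for different mice. Within a group of 3 mice the deviations sum to 0, so the sign for different mice is partly set by this centring. Each mouse is a separate animal.

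The genes named are the 8 RNAs, the 3 genes of each list with the highest TruSeq counts, genes of a list called in the same direction in all 3 kits, the 2 genes most like each RNA and small RNAs inside them. Some genes that this rule names are not reported here. These RNAs and lists were chosen with earlier results of these data known.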

Additional observations from a re-analysis of the deposited data

How the results depend on the processing

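Of the 7 RNAs, 2 were called in Pico, 1 in V4 and 3 in TruSeq. Thinning to the smallest library total left 1 in Pico and 0 in V4, as did a threshold of 0.01. Of all genes, thinning gave 1211 higher and 1923 lower of 18098 in Pico, and 540 and 1132 of 16890 in V4. At 0.01 these were 756 and 1128 of 18108, and 300 and 464 of 18051. In Pico, which holds the smallest library, thinning moved the adjusted p of Malat1 in limma-voom from 0.0418 to 0.0509. Leaving out 1 mouse gave 0 to 1 for Pico, 0 to 1 for V4 and 2 to 5 for TruSeq. Of all genes, these fits called 741 to 971 higher and 1024 to 1632 lower in Pico (17731 to 17884 tested). They called 341 to 589 and 567 to 1504 in V4 (17603 to 17844 tested). In TruSeq they called 1809 to 2166 and 3239 to 3585 (19121 to 19184 tested). Between kits, the RNAs higher in Pico than in TruSeq without overlap numbered 1, and 2 with library totals without mitochondrial genes, 3 with IL-1β mice only, 3 with saline mice only and 1 to 3 without 1 mouse. Those lower numbered 0, and 1 within either treatment group (Gas5). Those higher in Pico than in V4 numbered 3, and 5 with IL-1β mice only and 6 with saline mice only. Those lower in V4 than in TruSeq numbered 4, and 2 with TMM factors. The causes of these changes were not tested. The share of all genes without overlap was counted only with all mice and library totals. With fewer mice a gene can lose overlap but not gain it, so those counts have no share of all genes beside them.

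Directions changed for RNAs that passed no test in the kit. Malat1 in V4 was at 0.10 in edgeR, 0.11 in DESeq2 and 0.091 with TMM factors, and at -0.15 to 0.057 without 1 mouse. Malat1 in TruSeq was at -0.52 to 0.045 without 1 mouse. Meg3 in V4 was at 0.26 in edgeR, 0.26 in DESeq2 and 0.34 when thinned, and at -0.85 to 0.59 without 1 mouse. Meg3 in Pico was at -1.38 to 0.14 without 1 mouse. The Snhg1 difference of V4 against TruSeq was at -0.34 to 0.96 without 1 mouse.

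With mouse as a replicate block, 0 of the 7 RNAs were called in either comparison of responses, as without it. The Snhg1 difference was then -0.77 for Pico (adjusted p = 0.677) and 0.29 for V4 (adjusted p = 0.941). Over all genes the block gave 2 and 0 calls in limma, against 1 and 18 without it, edgeR 0 and 0, and DESeq2 4 and 55. The 3 mice per treatment and the counts of Meg3, H19 and, in V4, Snhg1 and Snhg12 limit what could be detected.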
